A study of Rattus norvegicus with 24 samples.

Results

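The 40 interferon-stimulated genes described here are genes that cells switch on when they sense interferon, and they were taken by symbol from a list that spans the transcription factors, sensors, enzymes and membrane proteins of that response. All 40 symbols were found among the 21067 genes of the deposited table, and 39 of them were among the 14772 genes that were tested, which had a mean of at least 0.1 FPKM (fragments scaled to transcript length and to the depth of the library, so that levels can be compared between genes) over all libraries. Zbp1 was the member that was not tested. The table holds 24 RNA-seq libraries of quadriceps femoris muscle from Sprague-Dawley rats that were 6 weeks old when obtained, males and females, with 6 libraries in each group. The control group was fed normally and did no treadmill training, whereas the treadmill group trained on an incremental treadmill programme for 7 weeks and then ran to exhaustion. Catgut group 1 had collagen thread embedded at 6 acupoints before the same training and final run, and catgut group 2 had the same thread at those acupoints plus Fei Shu. The treadmill and catgut groups therefore differ from the control group by both the training and the final run. Running was enforced by an electric stimulus at the tail of the treadmill, which cannot be told apart from the running here. No group had the thread without training. The thread was placed with a needle under ether anaesthesia, and no group had these without the thread. The sex of the individual rats is not given in the labels used here, and the labels speak of an adipose type in the extraction protocol although they name the tissue as quadriceps muscle.

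Interferons are secreted proteins that bind receptors on nearby cells and act through the kinases Jak1, Jak2 and Tyk2. Type I interferons lead to the assembly of ISGF3, a complex that holds Stat2 and Irf9 and binds interferon-stimulated response elements (ISREs) in promoters, whereas interferon gamma acts mainly through gamma-activated sites (GAS). The products of the induced genes bind foreign RNA, block viral replication, load peptides for immune recognition, or amplify and damp the signal itself. In skeletal muscle these genes are known from inflammatory muscle disease and infection.

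The promoters of the members are shown here as background. The list was made of genes known to be induced by interferon, so a high share of ISRE matches follows from that choice. RefSeq windows of 300 bases, with 250 before and 50 after the start of the gene in the rat assembly GRCr8, were found for 31 of the 40 members. None was found for Ddx58, Dhx58, Ifit1, Ifit2, Isg15, Mx2, Rtp4, Usp18 and Zbp1. The ISRE core, searched on both strands as GAAA, then any 2 bases, then GAAA, occurred in 20 of the 31 windows, or 64.5%, against 3.92% of all 33469 windows of the same length. The GAS core, searched as TTCNNNGAA, which reads the same on both strands, occurred in 8 of the 31 (25.8%) and in 8.87% of all windows. Its letters overlap those of the ISRE core in the Bst2 window. Of the 25 ISRE matches, 21 began within the 150 bases before the start, and 5 members had 2 matches. The 250 bases before the start of 6 members are given below in lower case, read 5′ to 3′ along the gene, with the ISRE core in capitals. A match on the opposite strand appears in capitals as TTTC, 2 bases and TTTC.
Irf7, chr1:205800024-205800273, - strand: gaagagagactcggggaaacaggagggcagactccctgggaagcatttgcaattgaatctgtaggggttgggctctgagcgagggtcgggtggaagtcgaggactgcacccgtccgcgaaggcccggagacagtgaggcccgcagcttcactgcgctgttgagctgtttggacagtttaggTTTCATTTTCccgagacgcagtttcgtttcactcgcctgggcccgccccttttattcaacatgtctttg
Ifit3, chr1:241527076-241527325, + strand: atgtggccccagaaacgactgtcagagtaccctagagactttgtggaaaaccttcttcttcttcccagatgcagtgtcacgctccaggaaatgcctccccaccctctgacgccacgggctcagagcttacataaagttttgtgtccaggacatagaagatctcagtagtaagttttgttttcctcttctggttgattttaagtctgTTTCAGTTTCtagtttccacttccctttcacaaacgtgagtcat
Rsad2, chr6:48788121-48788370, - strand: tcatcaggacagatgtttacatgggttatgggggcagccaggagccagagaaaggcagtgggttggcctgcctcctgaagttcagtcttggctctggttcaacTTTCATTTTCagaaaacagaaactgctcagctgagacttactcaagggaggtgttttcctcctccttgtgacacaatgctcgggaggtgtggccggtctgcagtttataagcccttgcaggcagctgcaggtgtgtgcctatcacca
Oas1a, chr12:41330216-41330465, + strand: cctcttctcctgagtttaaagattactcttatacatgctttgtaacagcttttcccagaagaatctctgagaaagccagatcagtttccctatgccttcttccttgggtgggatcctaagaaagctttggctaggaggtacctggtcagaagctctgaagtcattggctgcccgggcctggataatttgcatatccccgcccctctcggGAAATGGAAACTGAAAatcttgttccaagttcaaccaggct
Bst2, chr16:18254968-18255217, - strand: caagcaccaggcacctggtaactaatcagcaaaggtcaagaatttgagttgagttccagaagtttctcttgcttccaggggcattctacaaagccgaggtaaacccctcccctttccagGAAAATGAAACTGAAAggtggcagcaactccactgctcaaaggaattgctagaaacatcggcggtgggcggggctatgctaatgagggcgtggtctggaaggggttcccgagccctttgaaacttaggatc
Mx1, chr11:50294607-50294856, - strand: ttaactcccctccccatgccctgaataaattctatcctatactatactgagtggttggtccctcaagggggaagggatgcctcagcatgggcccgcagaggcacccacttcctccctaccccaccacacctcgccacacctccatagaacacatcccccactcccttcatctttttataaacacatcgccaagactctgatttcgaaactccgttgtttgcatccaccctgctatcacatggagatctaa
In Irf7, Ifit3 and Rsad2 the match lay on the opposite strand, with its first base 69, 44 and 147 bases before the start. Oas1a and Bst2 each held 2 overlapping matches, which read as 1 run of capitals. The Mx1 window held no match to these letters, and Mx1 is thus among the 11 members whose window lacked the core. The median ratio of control replicate 4 to the other controls, described below, was 9.41 in the 20 members with a match and 5.03 in those 11. The part of the ISRE in these ratios was not tested.

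The levels of the members followed single libraries more than groups. For each of the 39 tested members, log2(FPKM + 1) in a library was set against the median of that gene over all 24 libraries, and the mean of these deviations over the members gave the level of the library. It was 2.61 in control replicate 4, 0.88 in control replicate 2, 0.61 in treadmill replicate 4 and 0.48 in catgut 2 replicate 3, whereas the other 20 libraries lay between -0.47 and 0.23. The group medians were close to each other, at 0.02 in the control group, -0.13 in the treadmill group, -0.16 in catgut group 1 and 0.14 in catgut group 2. All groups overlapped, and the highest and lowest control libraries were 2.61 and -0.21.

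**Figure D1:**
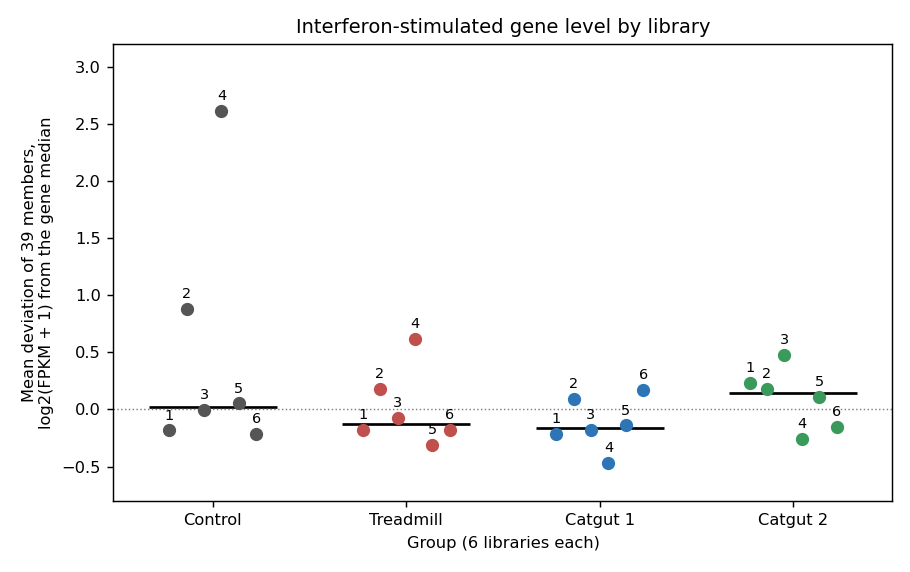
Mean deviation of the 39 tested members from the gene median over 24 libraries, on the log2(FPKM + 1) scale (y axis), for each of the 6 libraries per group (x axis), with the replicate number above each point and the group median as a line. Control replicate 4 stands at 2.61, and control replicate 2, at 0.88, is the next highest of the 24 libraries.

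Control replicate 4 was the highest of the 24 libraries for 39 of the 39 tested members, and Zbp1, the member not tested, was also highest there. Among all genes tested, 18.3% were highest in that library. It exceeded 2-fold of the median over all libraries for 39 of 39 members, against 13.4% of all genes tested. Ranked by the ratio of FPKM + 0.1 in control replicate 4 to the median of the other 23 libraries, the members had a median rank of 121 among 14772 genes, with 18 members in the first 100 and 35 in the first 500. The highest rank was 8 and the lowest 915. This library had a total count of 61682752, within the range of 45945938 to 78278080 over all libraries, and its median correlation with the other libraries, 0.961, was the lowest of the 24. Many genes outside the list were high in it too, and the members were near the top of their order.

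Control replicate 4 left out, control replicate 2 was the highest library for 25 of the 39 members, against 1.81% of all genes tested. Treadmill replicate 4 was then the highest for 5 members and catgut 2 replicate 3 for 4. Control replicate 2 exceeded 2-fold of the median over all libraries for 24 members (3.64% of all genes tested), treadmill replicate 4 for 17 (4.54%) and catgut 2 replicate 3 for 7 (5.9%). At the other end, catgut 1 replicate 4 was the lowest library for 18 members (12% of all genes tested). It also had the lowest total count of the 24 libraries, 45945938, and the fewest genes above 12 counts, 12909. No member exceeded 2-fold in control replicates 1, 3, 5 and 6.

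**Figure D2:**
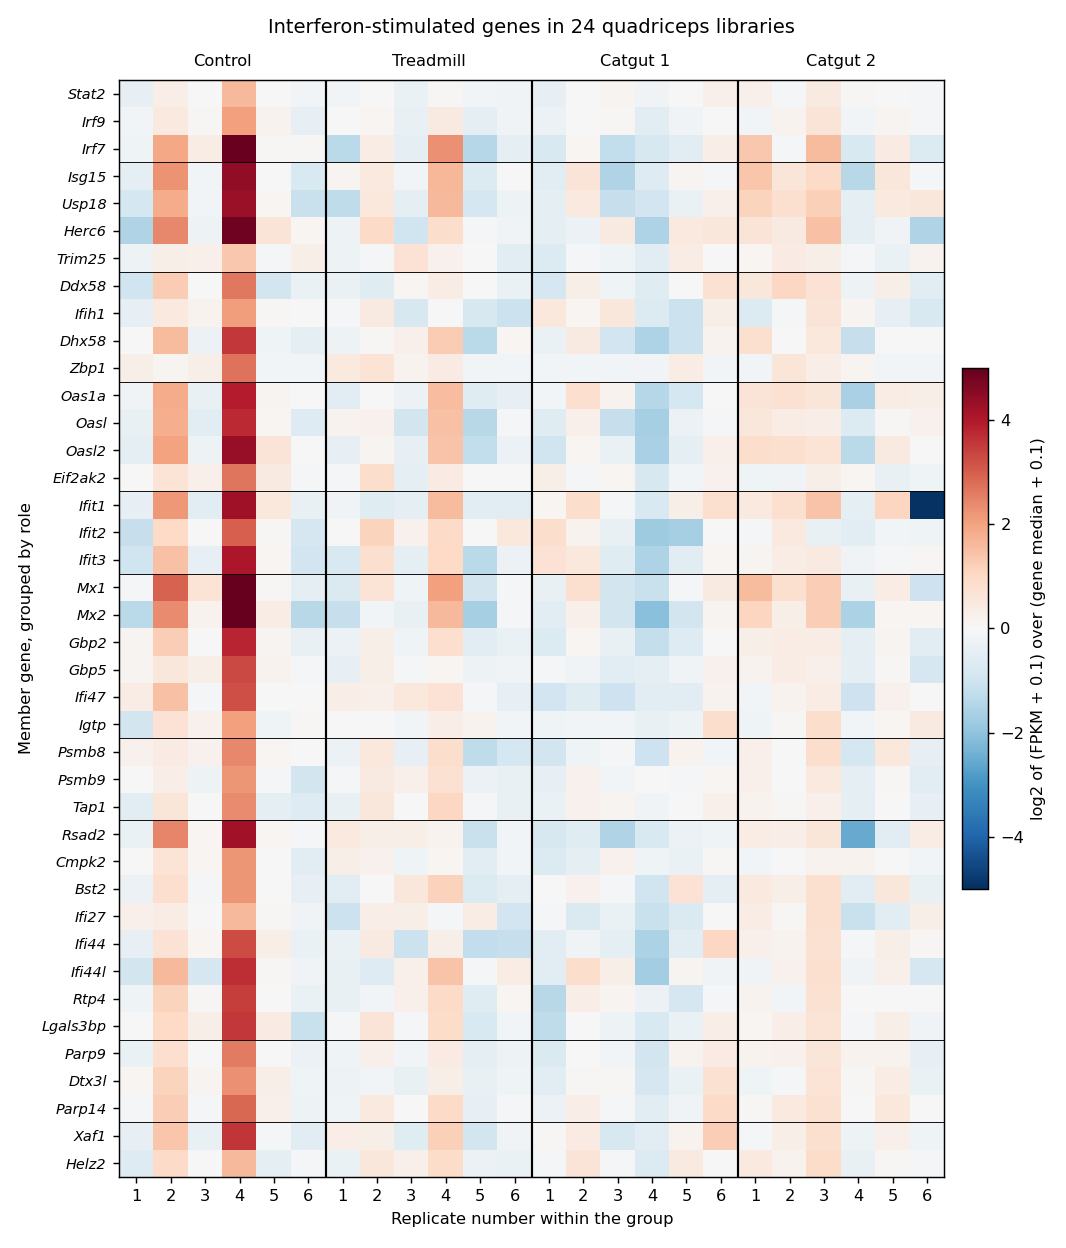
Levels of the 40 members (rows, grouped by role) in the 24 libraries (columns, by group and replicate number), as log2 of FPKM + 0.1 over the median of the gene + 0.1, with red above and blue below the median and the colour scale ending at 5 and -5. Control replicate 4 is red in all 40 rows, and the dark blue cell in catgut 2 replicate 6 is Ifit1, which is listed at 0 there.

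The members varied together. Over the 741 pairs of tested members, the median Pearson correlation of log2(FPKM + 1) across the 24 libraries was 0.866, whereas the median between a member and the other genes tested was 0.154. Without control replicate 4 the medians were 0.631 and 0.065, and without control replicates 2 and 4 they were 0.532 and 0.095. The 4 libraries with the highest level left out, the members still had a median of 0.39 over 20 libraries, against 0.103 with other genes. In the 18 treadmill and catgut libraries the medians were 0.563 and 0.095. These correlations describe the libraries at hand, since all pairs share the same libraries and 18 members lie within 150 kb of another member.

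The next paragraphs give the members by role, with the lowest, the median and the highest of the 6 libraries of a group in FPKM. The position of a gene is given as the table lists it, since its genome build is not given in the sources used here. In the tested members the ratio of control replicate 4 to the median of the other 5 control libraries ran from 2.2 to 68.4, with a median of 9.47, and it exceeded 10 in 18 members and 5 in 28. The ratio of control replicate 2 to the median of control replicates 1, 3, 5 and 6 ran from 1.17 to 8.84, with a median of 2.44, and exceeded 2 in 26 members. In muscle tissue as a whole, fewer cells of a type and less RNA per cell cannot be told apart.

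The transcription factors covered a wide span of ratios. Irf7 (chromosome 1:214248837-214252456, minus strand), which drives interferon production once it is switched on itself, was at 4.8, 6.59 and 177 FPKM in the control group, 2.01, 3.95 and 27.6 in the treadmill group, 2.32, 3.58 and 7.03 in catgut group 1 and 3.25, 6.46 and 17.1 in catgut group 2. The 177 FPKM of control replicate 4 was 30.2 times the median of the other controls, and the next highest library was treadmill replicate 4 at 27.6, before control replicate 2 at 22. Irf9 and Stat2 are subunits of ISGF3, and both were expressed at several FPKM in all libraries. Irf9 was at 4.25, 6.17 and 23.5 FPKM in the control group and 4.11, 5.31 and 7.72 in the treadmill group, and at 3.85, 5.24 and 5.94 in catgut group 1 and 5.14, 5.7 and 8.75 in catgut group 2. Stat2 was at 12.6 FPKM in control replicate 4 and between 3.03 to 5.51 in the other 23 libraries. Their ratios in control replicate 4, 3.95 and 3.12, were far smaller than that of Irf7.

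Isg15 is a ubiquitin-like protein that is joined to other proteins, Herc6 is a ligase of that reaction in rodents, and Usp18 removes Isg15 and damps signalling at the interferon receptor. Isg15 was at 0.755, 1.26 and 31.3 FPKM in the control group, 0.794, 1.43 and 4.45 in the treadmill group, 0.412, 1.07 and 2.17 in catgut group 1 and 0.455, 2.07 and 3.68 in catgut group 2. Usp18 was at 0.593, 1.38 and 29.8 FPKM in the control group, 0.515, 1.05 and 4.43 in the treadmill group, 0.573, 1.02 and 1.96 in catgut group 1 and 0.976, 2.27 and 3.28 in catgut group 2. In both genes, control replicate 4 was the highest, control replicate 2 the second and treadmill replicate 4 the third, and the remaining libraries overlapped between all groups. Herc6 was low, with 12 FPKM in control replicate 4, 2.08 in control replicate 2 and at most 1.06 in any other library. Its ratio of 34.7 in control replicate 4 was the second largest of the members. Trim25, a ubiquitin ligase that acts on the RNA sensor RIG-I, had the smallest, with 4.67 FPKM there against 1.08 to 2.98 in the other 23 libraries.

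The sensors of foreign RNA and DNA were at low levels. Ddx58, which encodes RIG-I, was at 5.53 FPKM in control replicate 4 and 2.12 in control replicate 2, against at most 1.8 in the other libraries. Ifih1, which encodes MDA5, was at 3.25 FPKM in control replicate 4 and 0.274 to 1.13 in the others. Dhx58, whose product LGP2 modulates both sensors, was at 5.33 and 1.28 FPKM in control replicates 4 and 2, and the ratios were 17.8 and 4.44. Zbp1, a sensor of nucleic acids in the Z form, was at 0.618 FPKM in control replicate 4 and at most 0.0775 elsewhere, with 0 listed in 12 libraries.

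Among the enzymes that respond to double-stranded RNA, the oligoadenylate synthetases had larger ratios than the kinase PKR. Oas1a, which makes the messenger that activates RNase L, was at 0.681, 0.957 and 15.2 FPKM in the control group, 0.565, 0.698 and 2.88 in the treadmill group, 0.274, 0.869 and 1.73 in catgut group 1 and 0.233, 1.34 and 1.6 in catgut group 2. Oasl2, one of the related Oasl proteins, was at 0.484, 0.961 and 16.8, 0.247, 0.548 and 2.09, 0.165, 0.531 and 0.888 and 0.222, 1.14 and 1.4 FPKM in the same order of groups. The neighbouring Oasl reached 6.55 FPKM in control replicate 4, 1.66 in control replicate 2 and 1.27 in treadmill replicate 4. All 3 genes had the same 3 libraries on top, and the ratios in control replicate 4 were 16.7, 23.3 and 23. Eif2ak2, which encodes PKR, an inhibitor of translation, was at 10.9 FPKM in control replicate 4, a ratio of 5.59, and at 0.897 to 3.12 in the other libraries.

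The 3 IFIT genes, whose proteins bind viral RNA ends and translation factors, lie within 51.5 kb of each other on chromosome 1. Ifit1 was at 1.99, 3.32 and 58.7 FPKM in the control group, 1.96, 2.07 and 9.18 in the treadmill group, 1.72, 3.44 and 5.57 in catgut group 1 and 0, 4.73 and 8.09 in catgut group 2. It is listed at 0 in catgut 2 replicate 6 while its neighbours were at 2.07 (Ifit3) and 1.7 (Ifit2) FPKM there, and it was at 1.72 or more in every other library. Ifit3 was at 0.941, 1.78 and 33.6 FPKM in the control group, 0.708, 1.49 and 4.07 in the treadmill group, 0.617, 1.73 and 3.33 in catgut group 1 and 1.72, 2.12 and 2.74 in catgut group 2. Ifit2 differed from the other IFIT genes in its second highest library, which was treadmill replicate 2, at 4.36 FPKM, rather than control replicate 2, at 4.06. It was at 1.96, 2.59 and 4.36 FPKM in the treadmill group, 0.502, 1.75 and 3.75 in catgut group 1 and 1.33, 1.74 and 2.78 in catgut group 2, with 16.5 in control replicate 4.

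The GTPases held the member with the largest ratio. Mx1, a dynamin-like GTPase that blocks viruses in the nucleus of rodent cells, was at 0.424, 0.847 and 44.7 FPKM in the control group, 0.28, 0.541 and 2.84 in the treadmill group, 0.23, 0.521 and 1.17 in catgut group 1 and 0.247, 0.995 and 2.03 in catgut group 2. Its 44.7 FPKM in control replicate 4 was 68.4 times the median of the other controls, and the 5.41 FPKM of control replicate 2 was 8.84 times the median of the remaining 4, which were both the largest ratios among the members. Mx2, its cytoplasmic neighbour, was at 0.42, 1.53 and 45.8, 0.33, 1.04 and 4.06, 0.216, 0.714 and 1.52 and 0.358, 1.45 and 3.06 FPKM in the 4 groups in that order. Since the members of such families have similar sequences, and the handling of reads that match several copies is not given in the sources used here, the split between Mx1 and Mx2, and within the Oas, IFIT and Gbp genes, is uncertain.

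Gbp2 and Gbp5 are guanylate-binding proteins that attack the vacuoles of intracellular microbes, and they lie within 115 kb on chromosome 2. Gbp2 was at 1.97, 2.87 and 37.8 FPKM in the control group, 1.76, 2.16 and 4.69 in the treadmill group, 1.09, 1.81 and 2.8 in catgut group 1 and 1.78, 3.02 and 3.42 in catgut group 2. Gbp5 was at 14.7 FPKM in control replicate 4 and 0.73 to 2.09 in the other libraries, so that the high level was nearly limited to that library. Control replicate 2 stood 1.34 times above the other controls for Gbp5 and 2.3 times for Gbp2. Ifi47 and Igtp belong to the immunity-related GTPases, which interferon gamma in particular induces. Ifi47 was at 1.76, 2.15 and 18.4 FPKM in the control group, 1.36, 2.29 and 3.1 in the treadmill group, 0.861, 1.22 and 2.09 in catgut group 1 and 0.855, 2.01 and 2.43 in catgut group 2. Igtp was at 8.46 FPKM in control replicate 4, 3.77 in catgut 1 replicate 6 and 3.75 in catgut 2 replicate 3, with 3.33 in control replicate 2.

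The genes of antigen processing had small ratios. Psmb8 and Psmb9, catalytic subunits of the immunoproteasome, and Tap1, which carries peptides into the endoplasmic reticulum, lie within 20.4 kb on chromosome 20. In control replicate 4 they were at 13.8, 12.7 and 8.3 FPKM, with ratios of 4.7, 5.03 and 7.5. The second highest library was treadmill replicate 4 for all 3, at 4.76, 4.62 and 3.26 FPKM, whereas control replicate 2 was at 3.39, 3.44 and 2.4.

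The remaining effectors included the members with the highest levels. Ifi27, a small membrane protein, had the highest mean of all members, and was at 81.7, 103 and 286 FPKM in the control group, 43.9, 100 and 119 in the treadmill group, 42.1, 64.8 and 91.9 in catgut group 1 and 42, 104 and 160 in catgut group 2. Bst2, which tethers budding virus to the cell surface, was second, at 16.4, 21.5 and 101, 13.5, 18.5 and 48.9, 10.9, 21.2 and 35.5 and 15, 28.3 and 37.8 FPKM in the same order. Both had modest ratios in control replicate 4, of 2.97 and 4.88, and the ISRE core was present in the windows of both. Rsad2, which encodes viperin, an enzyme that makes a chain-terminating nucleotide, was at 0.352, 0.502 and 10.4 FPKM in the control group, 0.163, 0.565 and 0.694 in the treadmill group, 0.0978, 0.256 and 0.394 in catgut group 1 and 0, 0.62 and 0.773 in catgut group 2. Its neighbour Cmpk2, a nucleotide kinase, was at 7.57 FPKM in control replicate 4, with a ratio of 4.76 against 20.9 for Rsad2. Treadmill replicate 4 was not raised for Rsad2, at 0.545 FPKM, although it was among the highest libraries for the Oas, IFIT and Mx genes.

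Ifi44 and Ifi44l, neighbours on chromosome 2 that encode cytosolic proteins, differed in their second library. Ifi44 was at 1.52, 2.34 and 20.4 FPKM in the control group, 0.803, 1.25 and 2.83 in the treadmill group, 0.608, 1.4 and 4.27 in catgut group 1 and 1.92, 2.35 and 3.49 in catgut group 2, with catgut 1 replicate 6 second. Ifi44l was at 9.32 FPKM in control replicate 4, 2.17 in control replicate 2 and 1.86 in treadmill replicate 4. Rtp4, a chaperone of membrane receptors, reached 21.3 FPKM in control replicate 4 and at most 4.13 in the others. Lgals3bp, a secreted glycoprotein, was at 1.01, 2.93 and 27.7 FPKM in the control group, 1.31, 2.22 and 4.39 in the treadmill group, 0.878, 1.83 and 2.91 in catgut group 1 and 2.02, 2.66 and 3.78 in catgut group 2. Parp9 and Dtx3l form a complex that modifies proteins with ADP-ribose and ubiquitin, and their genes lie head to head on chromosome 11. They were at 16.3 and 3.87 FPKM in control replicate 4 and at 4.75 and 1.63 in control replicate 2. Parp14, another ADP-ribosyltransferase, was at 8.11 and 2.55 FPKM in these libraries. Xaf1, an antagonist of the apoptosis inhibitor XIAP, was at 16.9 FPKM in control replicate 4 with a ratio of 16.7, and Helz2, a nuclear helicase, at 2.98 with a ratio of 3.49.

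**Figure D3:**
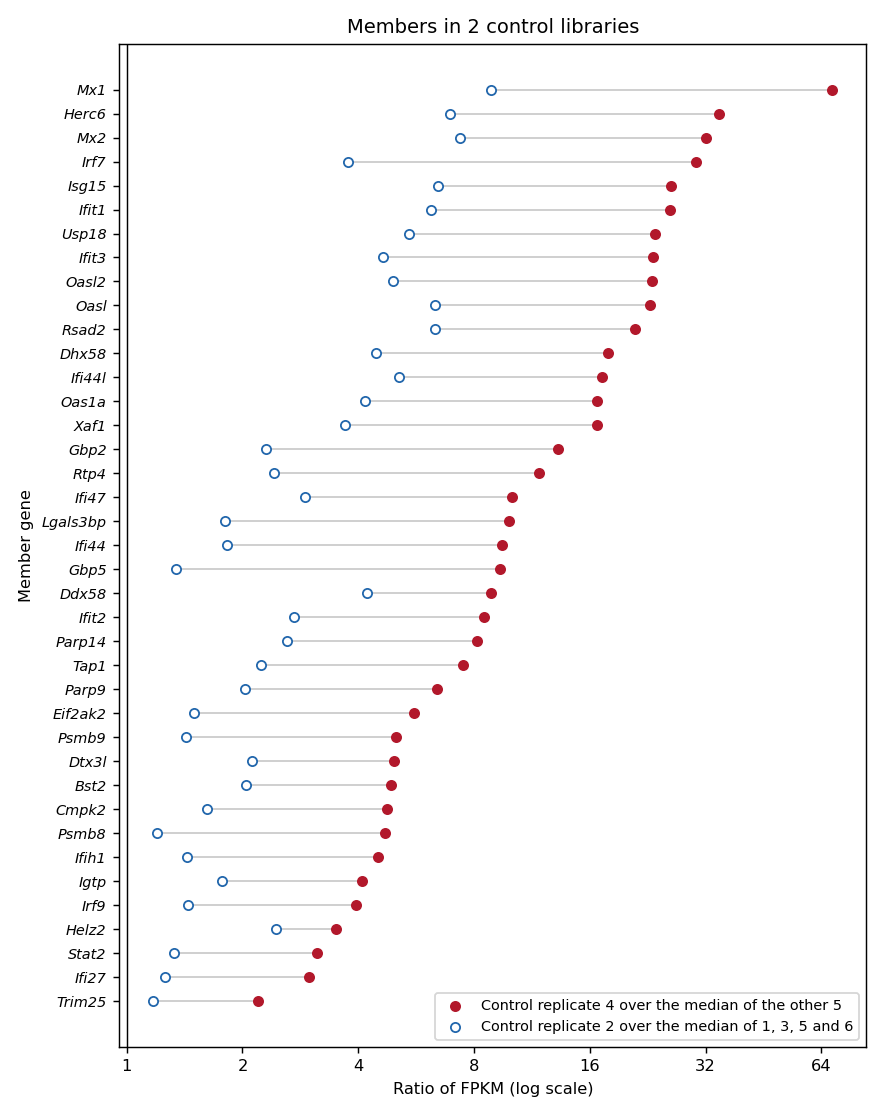
Ratio of FPKM in control replicate 4 to the median of the other 5 control libraries (filled) and in control replicate 2 to the median of control replicates 1, 3, 5 and 6 (open), on a log axis, for the 39 tested members. Every filled point lies at 2.2 or above, Mx1 is the highest for both libraries, and each open point is left of the filled point of its gene.

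Further genes of the pathway were read from lists, which were chosen with earlier results of these data known. Interferon ligands were near 0 in every library. The 3 of the 11 listed ligands that are in the table, Ifnb1, Ifna4 and Ifna5, had at most 4 counts in a library, which is under the detection limit of 12 counts used here. Among all genes tested, 18.3% were highest in control replicate 4 and 13.4% were over 2-fold of the median of all libraries there. Of the 8 tested receptors and kinases, 5 were highest in that library and 0 were over 2-fold of the median of the other 23. The list summed to 93.8 FPKM there, against at most 86.9 in the other libraries. In control replicate 4, Ifnar1 was at 8.55 FPKM against a median of 6.3 in the other 23 libraries, and Jak2 at 7.85 against 4.47. Of the 9 tested transcription factors and negative regulators, 5 were highest in that library and 1 was over 2-fold of the other libraries' median, Socs1, an inhibitor of Jak kinases, at 1.11 against 0.325 FPKM. Of the 7 tested upstream sensors, 4 were highest there and 1 was over 2-fold. The further induced genes were set apart from these by their share over 2-fold. Of the 28 tested, 25 were highest in control replicate 4 and 23 were over 2-fold, and their summed level was 1096 FPKM there against 276 to 613 in the other libraries. Cxcl10, a chemokine that attracts T cells, was at 9.82 FPKM in control replicate 4 and at most 0.777 elsewhere. Gbp4, another guanylate-binding protein, was at 5.6 against at most 0.544, and B2m, the light chain of MHC class I, at 400 against at most 209. Control replicate 2, the second library by the level of the members, was mixed for this list. Control replicate 4 left out, it was the highest library for 5 of the 28 further induced genes, against 1.81% of all genes tested. These were Oas1i, Oas2, Nlrc5, Lgals9 and Irgm. It was over 2-fold of the median of the other 22 libraries for 4 of the 28 (3.93% of all genes tested), whereas 10 were under that median. Oas1i, a further oligoadenylate synthetase gene, was at 1.53 FPKM there against 0.169, the median without control replicate 4, and Nlrc5, a regulator of MHC class I genes, at 0.482 against 0.168. Cxcl10, at 0.185 FPKM, was under its median, and the summed level of the list was 388 FPKM against a median of 394.

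Markers of cell types that muscle tissue can hold were read in the same way. Muscle fibre markers were at 63893 FPKM in sum in control replicate 4 and 62031 to 85643 in the other libraries, a sum to which abundant genes such as Acta1 contributed most. Myh7, the myosin heavy chain of slow fibres, was lowest in control replicate 4, at 0.0984 FPKM, and ran from 0.121 to 417 with a median of 64.2 in the other 23 libraries, whereas control replicate 2 was at 144. The part of this difference in the levels of the members was not tested. Macrophage markers, 9 genes, summed to 63.9 FPKM in control replicate 4, with 3 of 24 libraries above it, and 13.8 in control replicate 2, the lowest. By this sum, treadmill replicate 2 was the highest at 130 FPKM, with a level of the members of 0.18. Of the 9 genes, 4 were over 2-fold of the other libraries' median in control replicate 4, and 0 were highest there. Among all genes tested, 13.4% were over 2-fold of the median of all libraries in it, and 18.3% were highest. T cell markers were at 4.04 FPKM in control replicate 4 against a highest value of 11.5 in treadmill replicate 2. Cd4 alone was at 3.58 and 9.95 FPKM in these libraries, so that the sums mostly follow that gene. Cd2, Cd3d, Cd3e, Cd3g and Cd8a were at 0.241 FPKM or lower in control replicate 4. NK cell markers were at 0.572 FPKM there against a highest of 1.19, and B cell markers were listed at 0. Plasmacytoid dendritic cell markers, of which Irf8 and Tcf4 were tested, summed to 2.68 FPKM in control replicate 4, against a median of 1.69 in the other 23 libraries. Treadmill replicate 2 alone was higher, at 2.78 FPKM. Neutrophil markers were at 5.7 FPKM in control replicate 4 and highest in treadmill replicate 4, at 7.85. Erythroid markers were at 338 FPKM in control replicate 4, against a median of 640 in the other 23 libraries. Endothelial and adipocyte markers were highest in control replicate 4, at 60.2 and 30.2 FPKM. The next highest were treadmill replicate 4 for endothelial markers, at 58 FPKM, and control replicate 1 for adipocyte markers, at 25.3 FPKM. The level of the members was 0.61 in treadmill replicate 4 and -0.18 in control replicate 1. In control replicate 4, 2 of 4 endothelial and 4 of 4 adipocyte markers were over 2-fold of the other libraries' median, beside the 13.4% of all genes tested given above. In control replicate 2, adipocyte markers were at 0.389 FPKM and liver markers at 186, the latter exceeded by treadmill replicate 3 alone, at 296, where the level of the members was -0.08. The part of these cells in the levels of the members was not tested. Y-linked genes were at 21.6 FPKM in control replicate 4 and 10.3 in treadmill replicate 4, and under 0.05 in control replicate 2 and catgut 2 replicate 3. Their sum had a median of 6.9 FPKM in the control group, 5.19 in the treadmill group, 4.23 in catgut group 1 and 0.0239 in catgut group 2. The highest sums in these groups were 21.6, 11.7, 15.6 and 13.1 FPKM. Each library was either under 0.05 FPKM or at 8.45 FPKM or more. In the control, treadmill and catgut 1 groups replicates 4, 5 and 6 were the high ones, so their medians fall between the low and high libraries. In catgut group 2 replicates 1 and 5 were high, so that group had fewer high libraries than the others. A fit with the Y-linked level as a covariate is among the alternatives, and the part of sex in the levels of the members was not tested further.

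**Figure D4:**
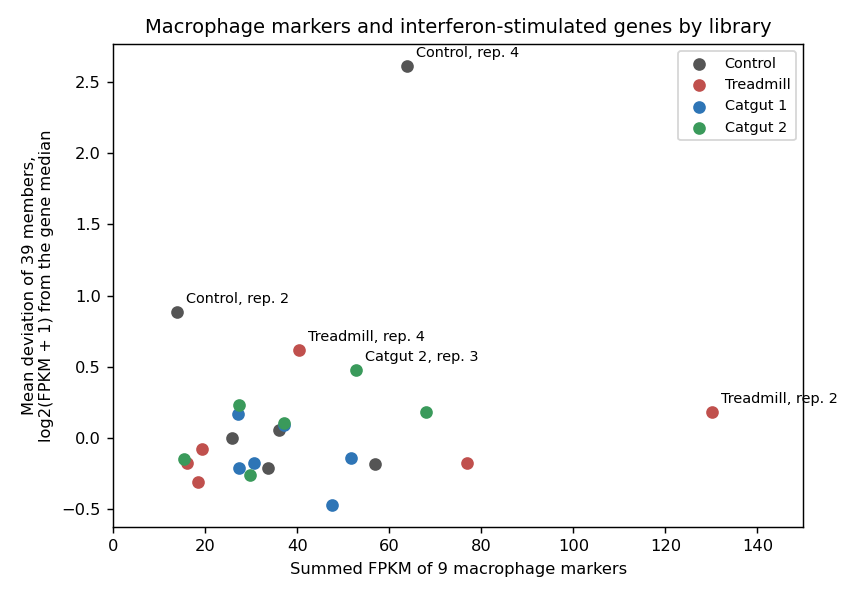
Summed FPKM of 9 macrophage markers (x axis) against the mean deviation of the 39 tested members on the log2(FPKM + 1) scale (y axis), 1 point per library, coloured by group. Control replicate 4, at 63.9 FPKM, is the highest on the y axis, control replicate 2 has the lowest marker sum, and treadmill replicate 2 has the highest marker sum with a member level of 0.18.

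The comparison of the treadmill group with the control group asks what training with a final exhausting run changed. With all 12 libraries, each of the 39 tested members had a lower fitted level in the treadmill group, with log2 fold changes from -3.05 to -0.24 and a median of -1.24, against -0.002 over all genes tested. The share of all genes tested that had a lower fitted level was 50.3%. The study selected genes by a fold change and p, and its thresholds were applied here to the ratio of group means of FPKM, above 1.5 or below 0.667, together with p below 0.05 before adjustment. What the fold change of the study was computed on, and whether its p was adjusted, is not given in the sources used here. By this criterion 11 members were lower and 0 higher, against 1.08% lower and 2.85% in either direction of all genes tested. The p-values are from edgeR's quasi-likelihood test, by which the same 11 members had an unadjusted p under 0.05 (9.12% of all genes tested). By edgeR, DESeq2 and limma 0 members had an adjusted p under 0.05, the smallest being 0.484 with edgeR (0.0542% of all genes tested passed). The log2 fold change was -3.05 ± 1.18 for Mx1 (SE, edgeR, adjusted p = 0.503), -2.58 ± 1.04 for Herc6, -2.60 ± 1.11 for Mx2, -2.21 ± 0.81 for Rsad2 and -2.12 ± 0.87 for Oasl2. The other 6 were Ifit1, Ifi44, Gbp2, Gbp5, Dtx3l and Ifih1, with log2 fold changes from -1.90 to -1.02. The groups overlapped for all of them, as they did for 39 of 39 members, while 0.447% of all genes tested did not overlap. By the exact two-sided permutation test of mean log2(FPKM + 1) over the 924 arrangements of 12 libraries, whose smallest possible p is 0.00216, Gbp5 had p = 0.0303 and Dtx3l p = 0.0368, and the exact p of Mx1 was 0.249.

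This comparison turned on control replicate 4. Without it the median log2 fold change of the members was -0.17, 33 of 39 were still under 0 (48.1% of all genes tested), and 1 member met the criterion as lower, Dtx3l, at -0.59 (against 0.623% lower of all genes tested). Mx1 moved from -3.05 to -0.81, Irf7 from -2.07 to -0.23 and Isg15 from -1.75 to -0.25. Gbp5 had -0.35 with an unadjusted p of 0.0387 (edgeR) and did not meet the fold part of the criterion. Without control replicates 2 and 4 the median was 0.27, 32 members were over 0 (51.8% of all genes tested), and 1 member met the criterion as higher, Ifit2 at 0.97 (against 3.35% higher of all genes tested). That fit was added after seeing the data. It dropped the 2 libraries with the highest level of the members and kept treadmill replicate 4, which had the next highest. An upward shift of the fold changes therefore follows from that choice. Other libraries moved the count of 11 as well. It was 20, 17 and 21 without control replicates 1, 5 and 6, and 20 without treadmill replicate 4, where 1.13% of all genes tested were lower by the criterion. It was 6, 7, 5, 5 and 5 without treadmill replicates 1, 2, 3, 5 and 6, and in each of these settings the called members were lower in the treadmill group. Dtx3l met the criterion in 12 of the 12 fits that left out 1 library, and Rsad2, Mx1, Ifi44 and Gbp5 in 11. Over these 12 fits the share of all genes tested that met the criterion as lower ran from 0.623% to 2.59%.

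**Figure D5:**
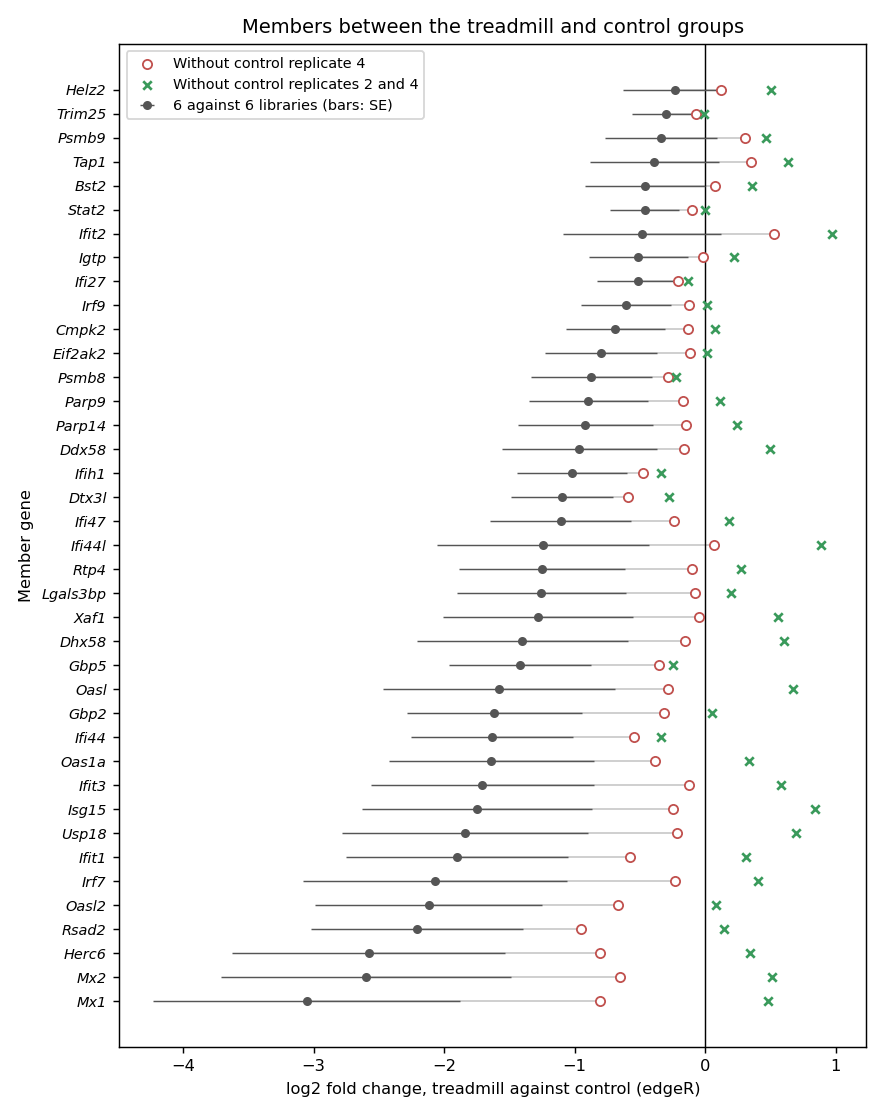
Log2 fold change of the treadmill group against the control group from edgeR for the 39 tested members, with all 12 libraries (filled, bars are SE), without control replicate 4 (open) and without control replicates 2 and 4 (crosses). All filled points are under 0, the open points have a median of -0.17, and the crosses a median of 0.27. Control replicates 2 and 4 had the highest levels of the members, so the upward shift of the crosses follows from leaving them out.

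The comparison of catgut group 1 with the treadmill group asks what the embedding procedure at 6 acupoints changed in trained rats. The thread, the needle and the anaesthesia cannot be told apart in it. Ifi47 and Rsad2 met the criterion as lower in catgut group 1, 2 of 39 members, against 1.99% lower and 3.12% in either direction of all genes tested. Ifi47 had a log2 fold change of -0.86 ± 0.26 (SE, unadjusted p = 0.00515, adjusted p = 0.36, edgeR), with an exact permutation p of 0.013. Its levels were 0.861 to 2.09 FPKM in catgut group 1 and 1.36 to 3.1 in the treadmill group, so that the groups overlapped through catgut 1 replicate 6 and the 2 lowest treadmill libraries. Rsad2 had a log2 fold change of -0.91 ± 0.37 (SE, unadjusted p = 0.0265, edgeR), with 0.0978 to 0.394 against 0.163 to 0.694 FPKM. The members had a median log2 fold change of -0.26 against -0.01 over all genes tested, and of 0.02 without treadmill replicate 4. In that setting, where 3.49% of all genes tested met the criterion, Ifit1 met it as higher, at 0.76, and Ifi47 and Rsad2 as lower. The groups overlapped for 39 of 39 members, while 0.413% of all genes tested did not overlap. The count of 2 became 1 without treadmill replicate 1 or 3, and 3 without treadmill replicate 4 or 5 or without catgut 1 replicate 1, 2 or 6. Ifi47 met the criterion in 12 of the 12 fits that left out 1 library, and Rsad2 in 10. By edgeR, DESeq2 and limma 0 members had an adjusted p under 0.05 (0.0474% of all genes tested with edgeR), and 2 had an unadjusted p under 0.05 with edgeR (6.93%).

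The comparison of catgut group 2 with the treadmill group asks the same of the set of acupoints with Fei Shu. Ifi44 met the criterion as higher and Ifit2 as lower in catgut group 2, which are 2 of 39 members against 3.76% of all genes tested. Ifi44 had a log2 fold change of 0.64 ± 0.29 (SE, unadjusted p = 0.0464, edgeR), with 1.92 to 3.49 FPKM against 0.803 to 2.83. Ifit2 had -0.68 ± 0.22 (SE, unadjusted p = 0.00982, edgeR), with 1.33 to 2.78 FPKM against 1.96 to 4.36. The groups overlapped for 39 of 39 members, while 1.04% of all genes tested did not overlap. By edgeR, DESeq2 and limma 0 members had an adjusted p under 0.05 (0.237% of all genes tested with edgeR), and 2 had an unadjusted p under 0.05 with edgeR (10.7%). The median log2 fold change of the members was 0.10, against 0.004 over all genes tested. Without treadmill replicate 4 it was 0.33, and 5 members met the criterion as higher, Irf7, Usp18, Mx2, Oasl2 and Ifi44 (against 2.36% of all genes tested). In that setting Irf7 was at 1.19 and Usp18 at 1.15, against 0.10 and 0.49 with all libraries. The count of 2 became 1 when any other library of either group was left out, with Ifi44 left without treadmill replicate 2 or catgut 2 replicate 4 and Ifit2 in the other fits.

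Between the catgut groups, 35 of 39 members had a fitted level that was higher in catgut group 2 (51.6% of all genes tested), with a median log2 fold change of 0.32 against 0.007 over all genes tested. Usp18 and Irf7 met the criterion as higher, 2 of 39 members against 0.9% higher and 1.25% in either direction of all genes tested. Usp18 had a log2 fold change of 1.01 ± 0.35 (SE, unadjusted p = 0.0121, edgeR), and its FPKM ran from 0.976 to 3.28 with Fei Shu and from 0.573 to 1.96 without it. Irf7 had 1.00 ± 0.44 (SE, unadjusted p = 0.0398, edgeR), with 3.25 to 17.1 against 2.32 to 7.03 FPKM. The groups overlapped in 39 of 39 members, while 0.162% of all genes tested did not overlap, and for these genes catgut 2 replicates 1 and 3 held the highest values. Lgals3bp, Gbp2 and Irf9 had an unadjusted p of 0.0358, 0.0474 and 0.048 (edgeR) with ratios of mean FPKM under 1.5, so that 5 members had an unadjusted p under 0.05 (3.26% of all genes tested). By edgeR, DESeq2 and limma 0 members had an adjusted p under 0.05 (0.00677% of all genes tested with edgeR). Usp18 met the criterion in 12 of the 12 fits that left out 1 library, and Irf7 in 6. The count of 2 was 12 without catgut 2 replicate 4, 9 and 8 without catgut 1 replicates 2 and 6, and 5 and 3 without catgut 2 replicates 6 and 5. It was 1 without catgut 1 replicate 1, 3, 4 or 5 or catgut 2 replicate 1 or 3. Over all 12 fits, 1.15% to 1.83% of all genes tested met the criterion, with 1.77% without catgut 2 replicate 4.

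Over all 4 groups in 1 edgeR fit, 25 of 39 members had an unadjusted p under 0.05 for any difference, against 13% of all genes tested, and 0 had an adjusted p under 0.05 (0.379% of all genes tested), with the smallest, 0.0881, in Mx1. DESeq2 gave 12 members an adjusted p under 0.05, against 3.28% of all genes tested, among them Mx1 (0.00209), Ifi47 (0.00358) and Gbp2 (0.00969). Without control replicate 4, 1 member was left with an unadjusted p under 0.05 in edgeR, against 12.2% of all genes tested. It was Ifi47, at 0.0136 with an adjusted p of 0.272. Mx1 had an unadjusted p of 0.000785 with all libraries and 0.24 without that library (edgeR).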

How the data were processed

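The table deposited by the authors holds whole-number counts per gene beside FPKM values for each of the 24 libraries. Per the labels, poly(A) RNA was sequenced paired-end, and HISAT2 2.0 and StringTie 1.3.0 are named in the submitters' processing notes. The genome build, the counting tool and its strand setting are not given in the sources used here. The deposited counts were used as listed, with 45945938 to 78278080 per library. A gene with 12 counts or fewer in a library was treated as not detected, a limit that covers counting error only. Among counts above 0, 4 was listed 13368 times and 8 was listed 7390 times, against 5676 times for 1, so the counts may not be numbers of single reads. How they were derived is not given in the sources used here, and edgeR, DESeq2 and the limit of 12 took them as listed. FPKM, which the authors scaled to the length of a transcript and to library depth, was used for levels, ratios and correlations. The members and the lists were chosen with earlier results of these data known.

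Tests covered the 14772 genes whose FPKM averaged 0.1 or more. Per comparison, 12 libraries were normalized by TMM and fitted with edgeR 4.0.16 (R 4.3.3), and p-values were adjusted by Benjamini-Hochberg over all genes tested. The 4 groups were fitted together for any difference. DESeq2 1.42.0, limma 3.58.1 on log2(FPKM + 1) or log2(FPKM + 0.1), no filter, a mean FPKM of at least 1, median ratios, 1 fit over all groups, a covariate for the Y-linked level, the replicate block and each library left out in turn were the alternatives, and robust fitting and leaving out control replicates 2 and 4 were added after seeing the data. Groups came from the labels. Nothing says that libraries of a group share an animal, and p-values measure the spread between these libraries. All 40 members are named. Those with an unadjusted p under 0.05 in any test, the 6 with the highest mean FPKM and the 6 with the largest SD of log2(FPKM + 1) were picked for fuller description. The edgeR step was tested on simulated data. Promoter windows were RefSeq sequences of GRCr8, from which no coordinates were mixed with those of the table. Figures were drawn with matplotlib 3.10.9.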

Additional observations from a re-analysis of the deposited data

Results flagged for a closer look

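A highest or lowest library that lay far from the other 5 of its group was found by Dixon's ratio, the gap to the nearest library over the range of the group, in 22 of 160 sets of 6 libraries with the ratio above the 95% critical value. Chance flags about 1 in 20 independent sets. The members moved together and shared the same libraries, so the 22 cannot be set against that rate. In 14 of the 22 the library was control replicate 4, on the high side, with ratios of 0.653 for Irf9, 0.661 for Stat2, 0.735 for Ifi44, 0.707 for Ifi27, 0.71 for Ifih1, 0.635 for Parp9, 0.653 for Gbp2, 0.848 for Gbp5, 0.85 for Psmb8, 0.645 for Psmb9, 0.64 for Tap1, 0.687 for Trim25, 0.761 for Eif2ak2 and 0.666 for Rtp4. These are mostly members with small or moderate ratios in that library. For the members with the largest ratios, such as Mx1, control replicate 2 was high as well on the log2 scale used, which shortens the gap. Treadmill replicate 4 was far above the other treadmill libraries for Mx2 at 0.64, Oas1a at 0.783, Ifit1 at 0.839 and Dtx3l at 0.674. Catgut 1 replicate 6 was far above its group for Ifi47 at 0.635 and Igtp at 0.849. In catgut group 2, replicate 4 was far below for Oas1a at 0.746, and replicate 3 far above for Rtp4 at 0.659.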

How the results depend on the processing

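In the treadmill against control comparison, the 11 members by the fold and p criterion became 7 with a mean FPKM of at least 1 (0.745% of all genes tested in that setting were called lower), 27 with 1 fit over all 4 groups (1.26%), 19 with DESeq2 (1.17%), 3 with the Y-linked level as a covariate (0.873%), 0 with limma on log2(FPKM + 1) (1.11%) and 1 with limma on log2(FPKM + 0.1) (1.19%), all of them lower in the treadmill group. Without control replicates 2 and 4 there was 1, and it was higher (3.35% of all genes). That setting leaves out the 2 libraries highest in the members, both from the control group, so an upward move follows from the choice. The median log2 fold change of the members then was 0.27, and 32 members changed sign. The 8 of these with an unadjusted p under 0.05 in either fit had log2 fold changes of 0.48 for Mx1, 0.51 for Mx2, 0.14 for Rsad2, 0.31 for Ifit1, 0.34 for Herc6, 0.084 for Oasl2, 0.055 for Gbp2 and 0.97 for Ifit2, of which Ifit2 had an unadjusted p under 0.05 without these libraries (edgeR). With 1 library left out at a time, the count ran from 1 to 21 (0.623% to 2.59% of all genes lower) and the median from -1.47 to -0.17.

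For catgut 1 against treadmill, the count of 2 was 1 with a mean FPKM of at least 1 (1.96% of all genes called) and 0 with 1 fit over all 4 groups (3.1%), and it ran from 1 to 3 with 1 library left out (2.76% to 3.53%, medians of -0.34 to 0.02). For catgut 2 against treadmill, the count of 2 was 1 with a mean FPKM of at least 1 (2.79%), 0 with 1 fit over all 4 groups (3.83%) and 1 with the Y-linked covariate (3.89%), and ran from 1 to 5 (3.37% to 4.43%, medians of -0.03 to 0.33). For catgut 2 against catgut 1, the count of 2 was 0 with 1 fit over all 4 groups (1.09%) and 4 with DESeq2 (1.35%), and ran from 1 to 12 (1.15% to 1.83%, medians of 0.23 to 0.48). For any difference among the 4 groups, DESeq2 gave 12 members an adjusted p under 0.05 (3.28% of all genes), and the 25 members with an unadjusted p under 0.05 became 1 with limma on log2(FPKM + 1) (9.96% of all genes), 1 with limma on log2(FPKM + 0.1) (10.2%) and 1 without control replicates 2 and 4 (12.2%), and 1 to 31 with 1 library left out (11.2% to 15.2%). The number of members with an adjusted p under 0.05 was 0 in every pairwise comparison and setting, and the cause of the changes was not tested.

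The labels give no pairing by replicate number, and the correlations that follow cannot exclude one. The numbers were not free of order. In the control, treadmill and catgut 1 groups, Y-linked genes summed to under 0.05 FPKM in replicates 1, 2 and 3. They summed to 8.45 FPKM or more in replicates 4, 5 and 6, whereas replicates 1 and 5 were the high ones in catgut group 2. Libraries with the same number had a median correlation of their deviations of 0.045 over 36 pairs (-0.447 to 0.273), against -0.007 over 180 pairs with different numbers. With the replicate block the members by the criterion were 8 for treadmill against control (2.38% of all genes called), 1 for catgut 1 against treadmill (2.52%), 1 for catgut 2 against treadmill (3.27%) and 4 for catgut 2 against catgut 1 (1.27%), and 1 member had an unadjusted p under 0.05 for any difference (10.5%).

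Most members were at a few FPKM or less, and 7 of the 40 had a library at or under 12 counts, where a level cannot be told from 0. With 6 libraries per group, of which 1 or 2 were far from the rest, the data limit the difference between the control and treadmill groups only loosely. The ratios in single libraries have no replicate, since nothing in the labels says that 2 libraries share a rat.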
